A study of Mus musculus with 10 samples.

Results

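The ADAM genes encode membrane proteins with a disintegrin and a metalloprotease domain. They were taken as every row of the expression matrix whose symbol was Adam followed by a number and at most 1 letter, which leaves out the secreted Adamts proteases, and this gave 33 of 21969 genes. Of these, 20 are known as sperm or testis genes, 12 as genes of somatic tissues, and 1, Adam7, as an epididymal gene. The names Adam36, Adam37, Adam38 and Adam40 had no row.

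The study followed spermatogonial stem cells, the stem cells of the male germ line, of DBA/2 mice as they were brought into culture. RNA was sequenced from 5 groups of 2 libraries, 10 in all. The week 0, week 1, week 2 and week 3 groups came from adult DBA/2 testis cells that had been picked magnetically with an anti-CD9 antibody and kept for that time in a medium based on Iscove's modified MEM, with human FGF2, recombinant rat GDNF and 1% fetal bovine serum. GS cells were the established cultures of such stem cells, also DBA/2, in the same medium. CD9 is a surface tetraspanin that other testis cells also carry, and the sources used here do not mention feeder cells. The labels do not tell whether the 2 libraries of a group had separate mice or cultures as their source, so each p-value reflects the variation between libraries alone, and that variation may be technical.

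ADAM proteins are made with a prodomain that furin and related convertases remove. In those with an intact metalloprotease site, a zinc ion held by histidines cuts other membrane proteins close to the membrane and so releases growth factors, cytokines, receptors and adhesion molecules, a step called shedding. Most mouse sperm ADAM genes are known to be transcribed in spermatocytes and spermatids, and their products sit on sperm, where several serve in sperm migration through the oviduct and in binding to the egg coat. Tetraspanins escort ADAM10, the iRhom proteins escort ADAM17, and TIMP proteins inhibit several active members.

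The catalytic stretch separates the members, so its coding sequence is shown for 4 somatic and 4 sperm members. It encodes 11 residues, read from the longest coding sequence of GENCODE M21 (GRCm38, the assembly that mm10 names). The capitals mark the codons of the 3 zinc-binding histidines and of the catalytic glutamate that follows the first of them.
Adam10: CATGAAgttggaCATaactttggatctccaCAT
Adam17: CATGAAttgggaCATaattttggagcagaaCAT
Adam9: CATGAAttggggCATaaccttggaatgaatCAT
Adam19: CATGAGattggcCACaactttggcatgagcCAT
Adam1a: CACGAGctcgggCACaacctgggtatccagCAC
Adam1b: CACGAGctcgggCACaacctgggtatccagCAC
Adam24: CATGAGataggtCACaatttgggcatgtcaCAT
Adam20: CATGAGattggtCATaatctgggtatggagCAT

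The Adam1a and Adam1b stretches were the same in all 33 bases. In Adam17, Adam9 and Adam19 the stretch lay within 1 exon, at chr12:21336732-21336764 and chr8:24990326-24990358 on the minus strand and at chr11:46125050-46125082 on the plus strand. In Adam10 an intron divides it, between chr9:70754296 and chr9:70761585 on the plus strand. A search of the longest coding sequence of each gene for this pattern (His-Glu, 2 residues, His, 2 residues, Gly, 2 residues, His) found it in 68 of 21951 genes, or 0.31%. It was present in 9 of 12 somatic members and absent from Adam11, Adam22 and Adam23, which are known as adhesion and ligand-binding receptors of neurons. It was present in 11 of 20 sperm members and absent from Adam7.

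Gene structure divided the sperm members further. The coding sequence lay in 1 exon in 15 of the 20, and all 11 with the catalytic pattern were among these. The other 5, Adam2, Adam3, Adam5, Adam18 and Adam32, had 19 to 22 coding exons and none had the pattern. These 5 also had the 5 highest week 0 levels, at mean FPKM (fragments per kilobase of transcript, scaled to the library's total) of 70.6 to 873 with a median of 373, against 4.65 to 55.4 with a median of 13.2 for the 15 with 1 coding exon. The 12 somatic members had 16 to 30 coding exons.

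The members lay on 10 chromosomes, and 20 of them formed 7 runs with gaps of at most 1 Mb. Chromosome 8 held 12 of the 20 sperm members. One run there, from 24602246 to 25016927, held Adam18, Adam3, Adam5, Adam32 and the somatic Adam9, all on the minus strand with no other coding gene between them. Adam32 began 806 bp past the end of Adam9. The other runs on this chromosome were Adam24, Adam25, Adam20 and Adam39 (40675077 to 40827037) and Adam26b, Adam26a and Adam34 (43519762 to 43710049). Adam1b and Adam1a lay together on chromosome 5, Adam4 with Adam21 and Adam6b with Adam6a on chromosome 12, and Adam7 with Adam28 on chromosome 14.

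The read number that scaled each library, read from the steps of low FPKM values, was 10.35 to 21.07 M reads (M, 1e6). It equals depth only if the normalization, which is not stated, left it unchanged. The week 0 libraries, labelled as spermatogonial stem cells like the others, had far higher summed levels of later germ cell markers than of spermatogonial markers. These lists hold different genes, so their sums do not measure how much RNA each cell type gave. All 12 spermatid markers were detected there, with a summed 25831 and 27647 FPKM, and the 10 meiotic markers summed to 5091 and 4759 FPKM. The 11 markers of undifferentiated spermatogonia, such as Gfra1 and Zbtb16, summed to 92.6 and 94.9 FPKM (week 0), 366 and 384 (week 1), 679 and 740 (week 2), 642 and 619 (week 3), and 783 and 753 (GS cells). Spermatid markers had dropped to 177 and 169 FPKM at week 1 and to 7.0 and 9.02 FPKM in GS cells. In such bulk libraries, fewer cells of a type and less RNA per cell cannot be told apart.

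The family was split by week 1. The 20 sperm members summed to 2295 and 2073 FPKM at week 0, which was 94.4% and 94.2% of all ADAM RNA. Their sum was 8.90 and 3.19 FPKM (week 1), 1.54 and 1.19 (week 2), 1.48 and 2.22 (week 3), and 2.64 and 1.03 (GS cells). The 12 somatic members summed to 136.0 and 128.5 FPKM (week 0), 246 and 267 (week 1), 147.3 and 147.7 (week 2), 103 and 127 (week 3), and 115 and 119 (GS cells). The sperm members thus made up 3.5% and 1.18% of ADAM RNA at week 1, far below their share at week 0 and with no overlap between the groups.

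**Figure D1:**
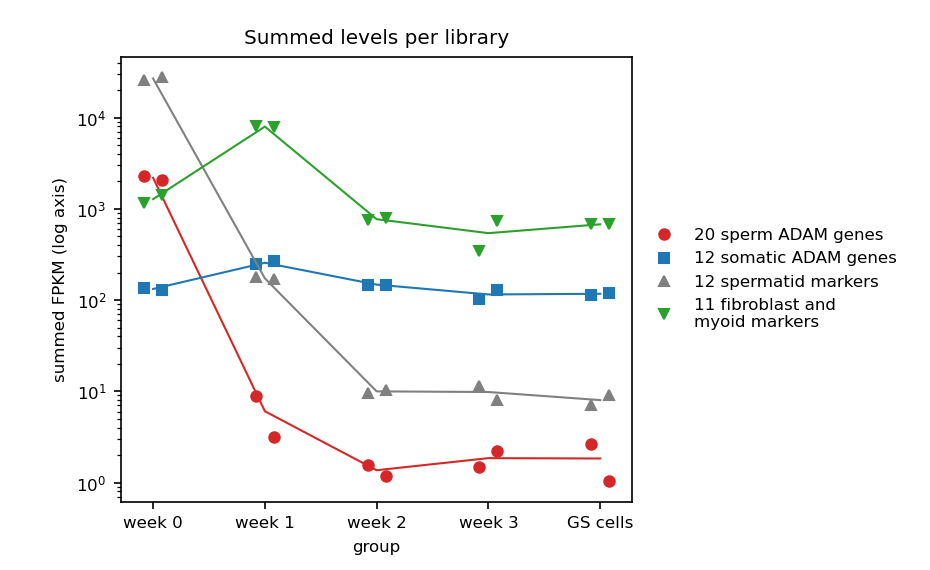
Summed FPKM on a log axis in each library (points) with the group mean (lines) for the 20 sperm and 12 somatic ADAM genes and for markers of spermatids and of fibroblast and myoid cells. The sperm ADAM sum lies at 8.90 FPKM or less in the 8 cultured libraries and at 2295 and 2073 FPKM at week 0, while the somatic sum is highest at week 1.

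**Figure D2:**
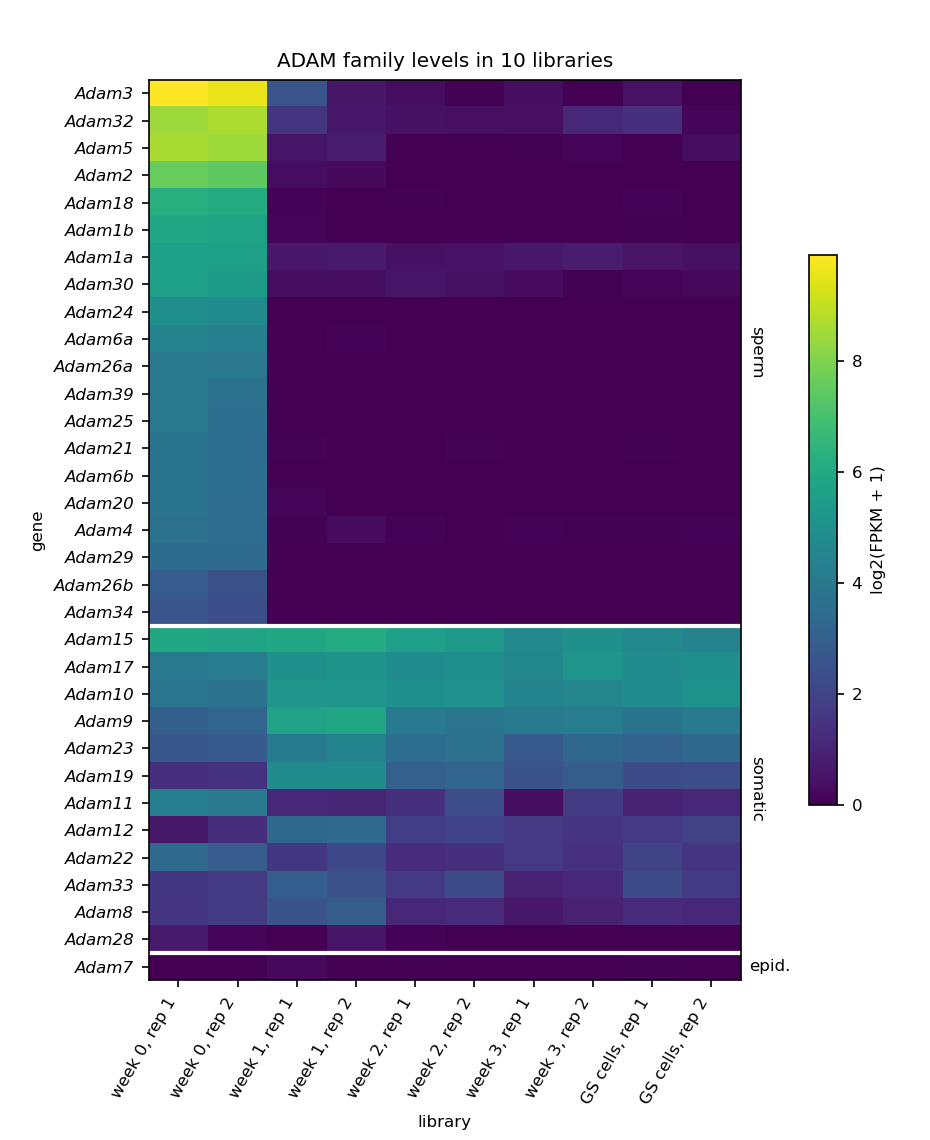
Level of each of the 33 members, as log2(FPKM + 1), in the 10 libraries (columns), with the sperm, somatic and epididymal members divided by white lines. The sperm members are brightest in the 2 week 0 libraries, and Adam9, Adam19 and Adam12 are brightest at week 1.

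Adam3 (ENSMUSG00000031553.16, chr8:24677225-24725852, minus strand) had the highest level of the family at week 0. Its product, cyritestin, is needed in the mouse for sperm to enter the oviduct and to bind the egg coat. Adam3 had 957 and 789 FPKM (week 0), 5.04 and 0.532 (week 1), 0.256 and 0.0323 (week 2), 0.279 and 0.0230 (week 3), and 0.392 and 0 (GS cells). The week 1 libraries differed from each other, but both lay far below the week 0 ones. The change at week 1 against week 0 was -8.16 ± 0.54 (log2(FPKM + 1), SE), and at GS cells against week 0 it was -9.53. These sizes are a description with no test, since Adam3 passed the expression filter (1 FPKM in 2 or more libraries) only through week 0, where it was high, and so had to differ. The same holds for every sperm member other than Adam32.

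Adam32 and Adam5, of the same run on chromosome 8, came next. Adam32 had 351 and 409 FPKM (week 0), 1.85 and 0.549 (week 1), 0.343 and 0.319 (week 2), 0.328 and 1.20 (week 3), and 1.5 and 0.127 (GS cells). Adam5 had 398 and 348 FPKM (week 0), 0.492 and 0.667 (week 1), 0 and 0 (week 2), 0.0359 and 0.102 (week 3), and 0 and 0.290 (GS cells). Their week 0 ranges overlapped each other and lay below those of Adam3. Adam32, which passed the filter without week 0, fell by 7.50 on the log2 scale at week 1 (limma, Benjamini-Hochberg adjusted p = 5.58e-07). The change of Adam5 was -7.89.

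Fertilin is a dimer of an alpha subunit, from Adam1a or Adam1b, and a beta subunit, from Adam2. Adam2 had 195 and 175 FPKM (week 0), 0.255 and 0.203 (week 1), 0 and 0 (week 2), 0 and 0.0225 (week 3), and 0.0202 and 0 (GS cells). Adam1b had 58.8 and 52.0 FPKM (week 0), 0.0955 and 0.020 (week 1), 0 and 0 (week 2), 0 and 0.0169 (week 3), and 0.0303 and 0 (GS cells). Both genes were thus at or below 0.255 FPKM in every cultured library. Their changes at week 1 were -7.24 for Adam2 and -5.73 for Adam1b on the log2 scale. Adam1a kept 0.352 to 0.718 FPKM in all 8 cultured libraries, more than Adam1b, against 46.9 and 47.1 FPKM at week 0. Adam30 had 0.048 to 0.460 FPKM in culture, against 46.9 and 41.4 FPKM at week 0. Of Adam1a, 51.9% of its 50-base windows also occurred in other transcripts, and of Adam1b 32.4%, so the split of reads between such copies is uncertain.

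Adam18, the last gene of the Adam9 run, had 74.4 and 66.9 FPKM (week 0), 0.0605 and 0 (week 1), 0.0326 and 0 (week 2), 0 and 0.0245 (week 3), and 0.0719 and 0.0268 (GS cells). Its change at week 1 was -6.12 on the log2 scale. Adam24, or testase 1, is a sperm surface protease. Adam24 was listed at 0 in all 8 cultured libraries, against 29.2 and 26.6 FPKM at week 0. Another 7 sperm members, Adam25, Adam26a, Adam26b, Adam29, Adam34, Adam39 and Adam6b, were likewise listed at 0 in every cultured library. Another 4, Adam4, Adam6a, Adam20 and Adam21, had at most 0.218 FPKM in culture, against 10.6 to 20.8 FPKM at week 0. Reads could be recovered for 12 sperm members with a lone annotated transcript. These had at most 8 reads in a cultured library and 130 to 2061 in a week 0 library. The 7 of them with 0 reads in all cultured libraries are limited by that count to below 0.053 to 0.0981 FPKM (3 reads, counting error only).

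At week 1 against week 0, all 20 sperm members were called lower (limma, adjusted p under 0.05), with changes of -8.16 to -2.49 on the log2 scale. Of the 20, 19 passed the filter only through their week 0 libraries and had to differ, so this count is a description and carries no weight as a test. Among all 15671 genes tested, 44% were called lower and 36.3% higher. The spermatid markers moved with the sperm members, at 0.662% and 0.631% of their week 0 mean in the week 1 libraries, against 0.408% and 0.146% for the sperm ADAM sum. This was not particular to spermatids. The sum of meiotic markers was at 3.11% and 2.58%, and that of markers of somatic Leydig cells at 4.57% and 4.98%. Ldhc made up most of the meiotic sum at week 0, with 3471 and 3245 FPKM. Of the 10 meiotic markers, 9 were called lower (limma) and Sycp1 was not called. Sycp1 averaged 62.3 FPKM at week 1 and 58.5 FPKM at week 0. Sycp3, which was called lower, averaged 37.2 FPKM at week 1 and 92.6 FPKM at week 0. The fall of the meiotic sum thus does not hold for each of its genes. The part of lost spermatids or spermatocytes in the loss of ADAM RNA was not tested.

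Genes whose products act on sperm ADAM proteins were examined in a list of 13, several of them needed in the mouse for ADAM3 to reach the sperm surface. At week 1 against week 0, 11 of 13 were called lower and 2 higher, against 44% and 36.3% of all genes tested. Of the 13, 6 passed the filter only through week 0 and had to be lower in culture, Cmtm2a, Cmtm2b, Prss37 and Pdilt among them. Cmtm2a, which with Cmtm2b is needed for ADAM3 on sperm, averaged 0.415 FPKM at week 1, 0 in GS cells and 573 FPKM at week 0. Cmtm2b averaged 0.183 FPKM at week 1 and 400 FPKM at week 0. Prss37, a protease-like protein, was at 0 in every cultured library and averaged 83.6 FPKM at week 0. Clgn, an endoplasmic reticulum chaperone of fertilin, averaged 3.33 FPKM in GS cells and 394 FPKM at week 0, a change of -6.52 (limma, adjusted p = 1.58e-08). Not all that fell came near 0. Tex101 kept 67.9 to 200 FPKM in every cultured library, against 305 and 310 FPKM at week 0. The 2 that rose, named after their values were seen, were Tpst2, a tyrosine sulfotransferase, and Pgap1, which trims the GPI anchor. They rose by 0.77 and 0.87 at week 1 and by 0.49 and 1.22 in GS cells against week 0. Of 14 listed genes of sperm and egg adhesion or fusion, 12 had a row and all 12 were called lower in both comparisons, against 44% and 45.9% of all genes tested. Of these 12, 10 passed the filter only through week 0 and had to be lower, so the count is a description. One of the 10 was Acr, the acrosomal protease acrosin, at 0.425 FPKM at week 1, 0.147 FPKM in GS cells and 240 FPKM at week 0.

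Most somatic members went the other way at week 1. Of the 11 tested, 8 rose and 2 fell, against 36.3% and 44% of all genes tested, and their median change was 1.11 against -0.14 for all genes. Adam28, the twelfth, did not reach the filter in any group, with at most 0.659 FPKM, and neither did Adam7, with at most 0.185 FPKM. Adam19 (ENSMUSG00000011256.16, chr11:46055992-46147343, plus strand), or meltrin beta, a sheddase of neuregulin, had 1.5 and 1.73 FPKM (week 0), 26.3 and 27.4 (week 1), 7.16 and 8.45 (week 2), 4.72 and 6.50 (week 3), and 3.78 and 4.02 (GS cells). Both week 1 libraries lay above all others. It averaged 26.9 ± 0.72 FPKM at week 1 and 1.61 ± 0.16 at week 0 (SD, n = 2 each), a ratio of 16.6 and a change of 3.42 ± 0.16 (log2(FPKM + 1), SE; limma, adjusted p = 1.55e-07).

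Adam9 (ENSMUSG00000031555.15, chr8:24949611-25016927, minus strand), a widely expressed protease that is the upstream neighbour of the sperm run on chromosome 8, had 6.99 and 8.45 FPKM (week 0), 51.9 and 57.2 (week 1), 15.5 and 13.9 (week 2), 16.1 and 17.0 (week 3), and 13.2 and 15.3 (GS cells). It was 7.06 times higher at week 1 than at week 0 (change 2.67 ± 0.13, SE; limma, adjusted p = 1.79e-07). The 4 sperm genes that follow Adam9 on the same strand changed by -8.16 to -6.12 in the same comparison, so neighbours 806 bp apart moved in opposite directions.

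**Figure D3:**
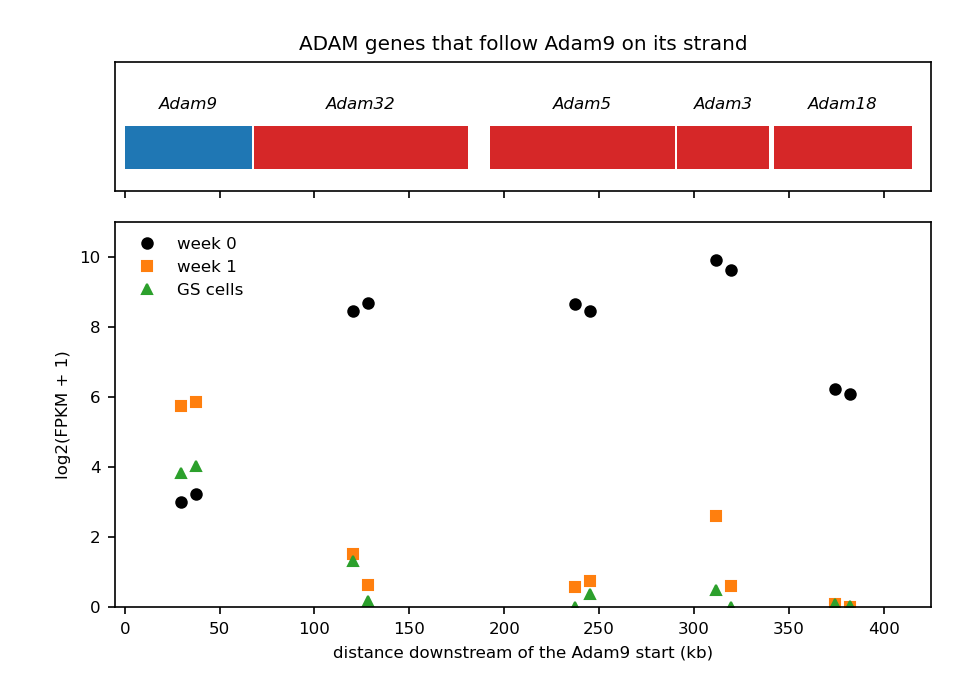
The run of Adam9 and 4 sperm ADAM genes drawn to scale by distance in kb downstream of the Adam9 start (top), with log2(FPKM + 1) of each gene in the libraries of week 0, week 1 and GS cells (bottom). Adam9 is lowest at week 0, whereas Adam32, Adam5, Adam3 and Adam18 are highest there.

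Adam12, or meltrin alpha, known from muscle and connective tissue, had 0.556 and 1.46 FPKM (week 0), 9.26 and 9.56 (week 1), 2.53 and 3.02 (week 2), 2.09 and 1.88 (week 3), and 2.09 and 2.91 (GS cells). Its ratio at week 1 to week 0 was 9.34 (change 2.41 ± 0.22, SE; limma, adjusted p = 1.18e-05). Adam8, a sheddase of leukocytes, had 1.93 and 2.27 FPKM (week 0), 5.01 and 6.47 (week 1), 1.15 and 1.28 (week 2), 0.593 and 0.854 (week 3), and 1.28 and 1.21 (GS cells). Adam33 had 2.06 and 2.22 FPKM (week 0), 6.84 and 4.45 (week 1), 2.22 and 3.77 (week 2), 1.01 and 1.1 (week 3), and 3.90 and 2.41 (GS cells). Both rose at week 1, by 1.11 and 1.06 on the log2 scale (limma, adjusted p = 0.000109 and 0.00485).

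ADAM10 and ADAM17 are the sheddases with the broadest known sets of targets, among them Notch receptors for ADAM10 and tumour necrosis factor and EGF receptor ligands for ADAM17. Adam10 (ENSMUSG00000054693.14, chr9:70678997-70780229, plus strand) had 13.6 and 12.8 FPKM (week 0), 35.2 and 36.0 (week 1), 30.6 and 31.3 (week 2), 21.4 and 22.0 (week 3), and 27.0 and 31.8 (GS cells). Adam17 (ENSMUSG00000052593.16, chr12:21323509-21373632, minus strand) had 15.1 and 17.6 FPKM (week 0), 30.7 and 33.5 (week 1), 27.0 and 29.5 (week 2), 23.4 and 34.6 (week 3), and 26.3 and 29.4 (GS cells). Every cultured library lay above both week 0 libraries for both genes. Adam10 rose by 1.37 ± 0.10 and Adam17 by 0.94 ± 0.17 at week 1 (log2, SE; limma, adjusted p = 2.32e-06 and 0.00106).

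Adam15, or metargidin, had the highest somatic level at week 0, with 60.5 and 54.7 FPKM, and kept 60.5 and 66.5 (week 1), then 47.2 and 38.7 (week 2), 25.3 and 30.7 (week 3), and 25.6 and 20.2 (GS cells). Its week 1 change of 0.14 ± 0.15 (SE) was not called (limma, adjusted p = 0.423), but it was called higher when libraries were scaled to a common FPKM sum (0.38, adjusted p = 0.0349) or quantile-normalized (0.63, adjusted p = 0.00391). The 3 members without the catalytic pattern split. Adam11 had 18.2 and 14.9 FPKM (week 0), 1.164 and 1.11 (week 1), 1.55 and 4.1 (week 2), 0.285 and 2.28 (week 3), and 1.00 and 1.18 (GS cells). Adam22 had 9.52 and 6.36 FPKM (week 0), 2.04 and 3.41 (week 1), 1.41 and 1.55 (week 2), 2.14 and 1.66 (week 3), and 3.10 and 1.79 (GS cells). Both were lower in every cultured library than in either week 0 library, and fell by 3.03 and 1.27 at week 1 (limma, adjusted p = 0.000243 and 0.00203). Adam23 had 5.34 and 5.91 FPKM (week 0), 16.5 and 21.0 (week 1), 10.9 and 12.1 (week 2), 5.78 and 8.89 (week 3), and 7.63 and 8.93 (GS cells), and rose by 1.57 at week 1 (limma, adjusted p = 0.000101). Of LGI proteins, secreted ligands of ADAM22 and ADAM23, Lgi2 and Lgi3 rose at week 1, to 8.48 and 2.85 FPKM against 1.46 and 0.515 FPKM (week 0), Lgi4 was not called and Lgi1 was not tested. Only Lgi4 of the 3 tested was called in GS cells against week 0, at 0.787 FPKM in GS cells and 2.25 FPKM at week 0.

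**Figure D4:**
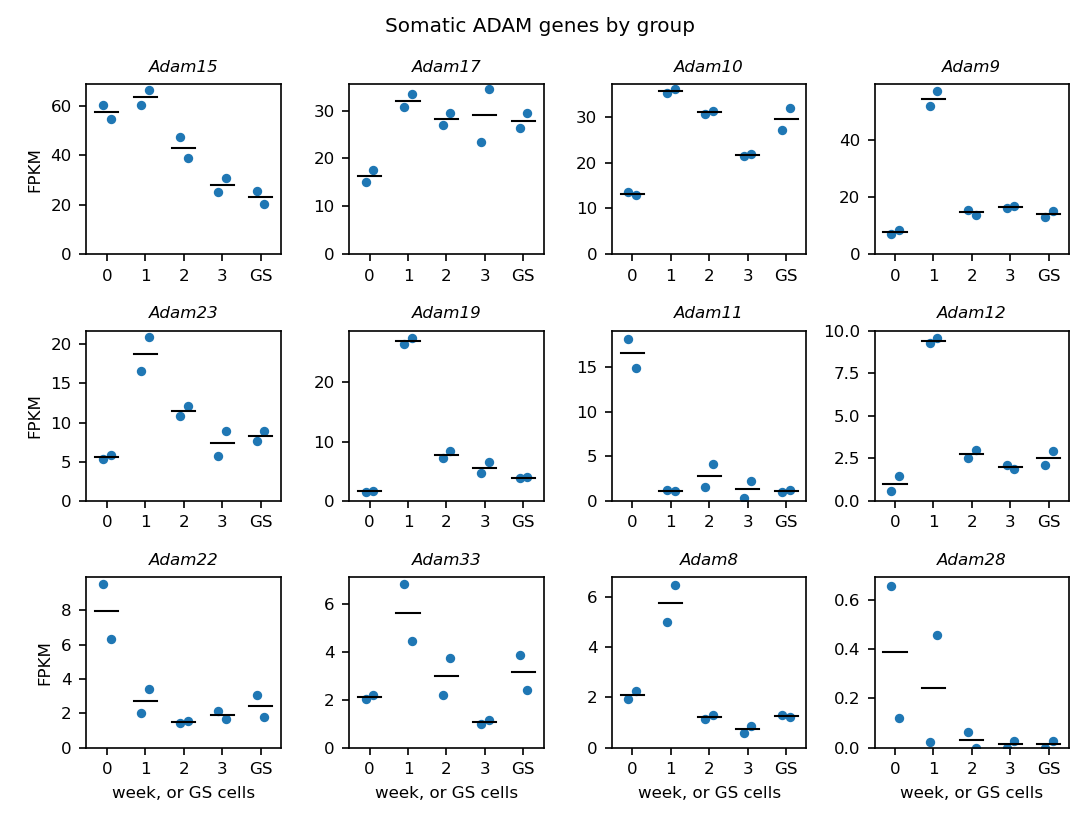
FPKM of each somatic member in the 2 libraries of each group (points) with the group mean (bars), on linear axes that start at 0 and differ between panels. Week 1 has the highest mean for Adam9, Adam19, Adam12, Adam8, Adam23, Adam33, Adam10, Adam17 and Adam15. For Adam17 and Adam15 the week 1 libraries overlap those of another group. Adam11, Adam22 and Adam28 have their highest mean at week 0, Adam28 at low levels and with overlap.

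Markers of other cells moved at the same time. The 11 fibroblast and myoid markers, such as Col1a1 and Fn1, summed to 1149 and 1403 FPKM (week 0), 7985 and 7917 (week 1), 755 and 783 (week 2), 348 and 734 (week 3), and 677 and 675 (GS cells). At week 1 against week 0, 10 of the 11 rose, against 36.3% of all genes tested. The smooth muscle actin gene Acta2 was not called, with 228 and 227 FPKM at week 1 against 353 and 418 at week 0 (-0.75). At week 2 against week 1 all 11 fell, against 27.4% of all genes tested, and none of the 11 was at 0 in any library. Markers fell at week 1 in 5 of 6 Leydig and 6 of 8 Sertoli genes, and of 7 tested macrophage markers 2 rose and 3 fell. Among all genes tested, 44% were called lower and 36.3% higher. Of the 7 macrophage markers, 5 fell in GS cells against week 0, against 45.9% of all genes tested. Without week 0, 4 of the Leydig, 2 of the Sertoli and 2 of the macrophage genes would not have passed the filter, so these counts are descriptions. What part fibroblast and myoid cells had in the week 1 rise of somatic ADAM RNA was not tested.

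At week 2 against week 1, 7 of 11 somatic members fell and 0 rose (limma; also 0 at an unadjusted p under 0.05), while 27.4% of all genes tested were called lower and 28.2% higher. Adam9 fell by 1.82, Adam19 by 1.67, Adam8 by 1.60 and Adam12 by 1.47 on the log2 scale (limma, adjusted p = 1.19e-05, 5.94e-05, 4.54e-05 and 0.000701), and these 4 calls held with each library left out in turn. Adam15, Adam23 and Adam33 fell by 0.56, 0.65 and 0.74 (adjusted p = 0.014, 0.0225 and 0.0387), and all 3 calls were lost with a common FPKM sum, that of Adam33 also with a pseudocount of 0.1, with no filter and under quantile normalization. The Adam15 call was also lost without replicate 2 of week 1 (-0.49) or of week 2 (-0.42). That of Adam23 was lost without replicate 2 of week 1 (-0.49), replicate 1 of week 2 (-0.58) or replicate 2 of week 2 (-0.73). That of Adam33 was lost without replicate 1 of week 1 (-0.48) or of week 2 (-0.45), and without either library of week 3 (-0.74). Adam10 and Adam17 were not called, with changes of -0.20 ± 0.10 and -0.18 ± 0.17 (SE), which turned to 0.10 and 0.12 with a common FPKM sum. Of the sperm members, Adam5 and Adam2 were called lower at levels below 1 FPKM in both weeks (adjusted p = 0.00679 and 0.0417). Without a week 0 library neither reached the filter, and Adam2 lost its call without any other library.

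At week 3 against week 2, 0 of 20 sperm members were called (limma; 1 fell at an unadjusted p under 0.05). Of these, 18 were under 1 FPKM in every cultured library. Of 11 tested somatic members 3 fell and 0 rose (6 fell at an unadjusted p under 0.05), against 10.7% and 10.6% of all genes tested. These were Adam10 (-0.50, adjusted p = 0.00941), Adam15 (-0.60, adjusted p = 0.0262) and Adam33 (-0.92, adjusted p = 0.0384). None of the 3 was called without replicate 1 of week 3 (-0.48, -0.47 and -0.87). The Adam10 call was also lost without either week 2 library (-0.51 and -0.48), that of Adam15 without replicate 1 of week 2 (-0.46) and that of Adam33 without replicate 2 of week 2 (-0.63) or of week 3 (-0.96). With replicate 2 of week 3 left out, 5 members were called lower, Adam11, Adam19 and Adam23 among them. The week 3 libraries differed in fibroblast and myoid markers, with 348 FPKM in replicate 1 and 734 in replicate 2.

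At GS cells against week 3, 0 of 20 sperm members were called. Of 11 tested somatic members 2 rose and 0 fell (1 at an unadjusted p under 0.05), against 11.7% higher and 10.8% lower among all genes. The 2 were Adam10 (0.42 ± 0.10, SE; limma, adjusted p = 0.0179) and Adam33 (0.98 ± 0.26, adjusted p = 0.0296). Neither was called without replicate 1 of week 3 (0.40 and 0.93) or replicate 2 of week 3 (0.44 and 1.03). Adam10 was not called without replicate 2 of GS cells (0.31), nor Adam33 without replicate 1 of GS cells (0.72).

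GS cells against week 0, which shares its groups with the comparisons above, asked what the established cultures differed in from freshly selected cells. In this comparison 5 of 11 somatic members rose and 4 fell, against 34.7% and 45.9% of all genes tested, and all 20 sperm members fell, with the same limit on that count as at week 1. Adam10 averaged 29.4 ± 3.4 FPKM in GS cells and 13.2 ± 0.57 at week 0 (SD, n = 2 each), a ratio of 2.23 (limma, adjusted p = 9.59e-06). Adam17 averaged 27.9 ± 2.2 FPKM in GS cells and 16.3 ± 1.8 at week 0, a ratio of 1.71 (adjusted p = 0.004). These 2 and Adam15 had the highest ADAM levels of GS cells, with overlapping ranges for Adam10 and Adam17 and a lower range for Adam15. Adam19, Adam12 and Adam9 also rose, by 0.91, 0.83 and 0.81 on the log2 scale (adjusted p = 0.000694, 0.00747 and 0.000364). The Adam12 call was lost without replicate 1 of week 0 (0.50) or replicate 2 of GS cells (0.66).

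Adam11, Adam22 and Adam15 fell by 3.06, 1.38 and 1.30 (GS cells) against week 0 (limma, adjusted p = 0.000219, 0.00122 and 5.8e-05), Adam22 without a call under quantile normalization (-0.42). Adam8 fell by 0.46 (adjusted p = 0.0154), but rose by 0.62 under quantile normalization. Its call was also lost with a common FPKM sum (-0.16, adjusted p = 0.335) and without replicate 2 of GS cells (-0.44) or of week 0 (-0.39). Adam23 and Adam33 were not called, with changes of 0.48 ± 0.20 and 0.38 ± 0.26 (SE), but were called higher with a common FPKM sum (0.90 and 0.71) and under quantile normalization (1.42 and 1.45). The median of all genes moved from -0.21 in this comparison to 0.17 and 0.45 under these 2 scalings. Adam23 was also called higher when either library of week 1 or of week 3 was left out (0.48 each). Fibroblast and myoid markers summed to 677 and 675 FPKM in GS cells and to 1149 and 1403 FPKM at week 0, but the genes of this list went both ways. Lum, Fn1, Col1a1 and Lox rose, the first 3 by 2.58, 2.39 and 0.56, and 5 fell, Acta2 (-4.14), Dcn (-2.50) and Tagln (-2.01) among them (limma), with a median of -0.24. The largest rise was that of Lox, which averaged 39.4 FPKM in GS cells and 2.57 FPKM at week 0. Among all genes tested, 34.7% were called higher and 45.9% lower. The part of such cells in the rise of Adam10, Adam17, Adam9, Adam19 and Adam12 was not tested.

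Partners of the active proteases were examined next. ADAM17 needs an iRhom protein to leave the endoplasmic reticulum, and FRMD8 stabilises the pair. Rhbdf2, for iRhom2, had 5.72 and 6.77 FPKM (week 0), 17.9 and 20.7 (week 1), 16.6 and 18.9 (week 2), 16.8 and 17.9 (week 3), and 15.1 and 16.1 (GS cells), with every cultured library above week 0. It rose by 1.49 ± 0.12 at week 1 (SE; limma, adjusted p = 7.15e-06), when Rhbdf1, for iRhom1, and Frmd8 were not called. In GS cells against week 0 all 3 rose, Rhbdf2 by 1.20, Rhbdf1 by 0.96 and Frmd8 by 0.52 (limma, adjusted p = 2.84e-05, 0.000371 and 0.00624). Among all genes tested, 34.7% were called higher there.

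Of the 6 tetraspanins that escort ADAM10, 5 were tested, Tspan10 being below the filter. Tspan14 had 11 and 14 FPKM (week 0), 23.7 and 27.1 (week 1), 43.5 and 41.5 (week 2), 49.9 and 52.1 (week 3), and 37.8 and 37.1 (GS cells), and rose at week 1 (0.97) and in GS cells against week 0 (1.52; limma, adjusted p = 7.87e-05 and 4.32e-06). Tspan33 fell in both, by 0.53 and 0.51, and Tspan15 rose by 0.59 in GS cells against week 0 (adjusted p = 0.0285). Tspan5 and Tspan17 were not called in either. The tetraspanins thus moved in different directions while Adam10 rose.

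Of the 4 proprotein convertases, Furin averaged 43.0 FPKM at week 1, 43.6 FPKM in GS cells and 22.5 FPKM (week 0), and rose in both comparisons (0.91 and 0.92; limma, adjusted p = 0.000436 and 0.000396). Pcsk7 fell in both, by 1.83 and 1.21. Pcsk5 rose by 1.24 at week 1 and fell by 0.90 in GS cells, and Pcsk6 was not called at week 1 (-0.06) and rose in GS cells (0.98). The difference between these 2 comparisons was not tested.

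The 3 TIMP inhibitors that could be tested were higher at week 1 than in any other group. Timp1, an inhibitor of ADAM10 and of matrix metalloproteases, had 3.21 and 4.38 FPKM (week 0), 3800 and 3543 (week 1), 88.4 and 90.8 (week 2), 40.7 and 95.3 (week 3), and 152 and 141 (GS cells). Timp3, the TIMP that inhibits ADAM17, had 35.4 and 38.8 FPKM (week 0), 116 and 120 (week 1), 12.5 and 11.2 (week 2), 7.98 and 11.4 (week 3), and 25.8 and 24.2 (GS cells). Timp1, Timp2 and Timp3 each peaked at week 1, when they rose by 9.59, 2.12 and 1.64 (limma, adjusted p = 2.37e-08, 3.49e-05 and 1.09e-05). Among all genes tested, 36.3% were called higher at week 1. In GS cells against week 0 Timp1 rose by 4.95, whereas Timp2 and Timp3 fell by 1.83 and 0.55 (adjusted p = 1.4e-06, 8.99e-05 and 0.00789). Timp4 was below the filter. The fibroblast and myoid markers given above peaked in the same week as the TIMP genes, and their part in this was not tested.

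**Figure D5:**
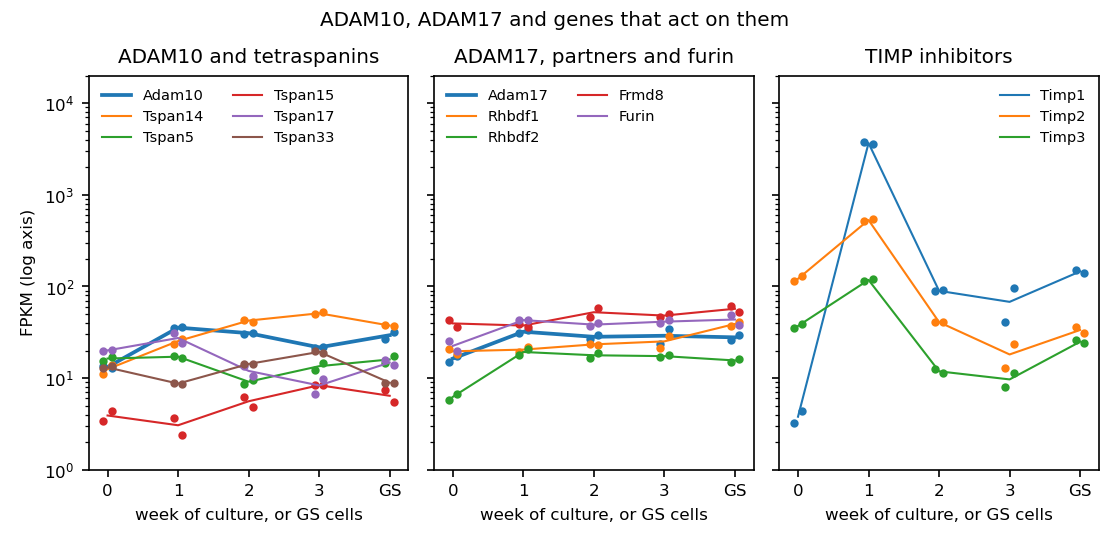
FPKM on a log axis in each library (points) with group means (lines) for Adam10 and the tetraspanins that escort it, for Adam17 with its iRhom partners, Frmd8 and Furin, and for the TIMP inhibitors. Adam10 and Adam17 stay between 21.4 and 36.0 FPKM in culture, while Timp1 is at 3800 and 3543 FPKM at week 1 and at 152 or less in all other groups.

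Known shedding targets were counted in 2 lists. Of 20 growth factors, cytokines and receptors, 19 were tested, of which 12 were called higher and 5 lower at week 1 against week 0, beside 36.3% and 44% of all genes tested. The largest rises were those of the EGF receptor ligands Ereg (7.50) and Hbegf (5.22) and of Csf1 (4.38), the macrophage growth factor. Hbegf had 3.6 and 3.28 FPKM (week 0), 167 and 162 (week 1), 18.1 and 16.6 (week 2), 6.21 and 8.07 (week 3), and 23.4 and 22.7 (GS cells). In GS cells against week 0, 8 were called higher and 8 lower, beside 34.7% and 45.9% of all genes, with the largest changes in Ereg (3.87), the macrophage receptor Csf1r (-3.78) and Tnf (-3.49). Csf1r and Tnf were among 4 of the 19 that passed the filter only through week 0 and had to be lower in culture.

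Of 14 adhesion and Notch pathway targets, 7 were called higher and 3 lower at week 1, against 36.3% and 44% of all genes tested, with Cd44 (7.15), Alcam (3.52) and the Notch ligand Jag2 (-2.35) changed most. In GS cells against week 0, 6 were called higher and 7 lower, against 34.7% and 45.9%. The Notch ligand Dll4 passed the filter only through week 0. Cd44 averaged 18.0 FPKM in GS cells and 0.525 FPKM (week 0), a change of 3.66. Epcam, an epithelial adhesion molecule also found on spermatogonia, averaged 142 FPKM in GS cells and 20.8 FPKM at week 0 (2.71), and Cdh2, or N-cadherin, a target of ADAM10, averaged 8.20 and 33.9 FPKM (-1.92; limma, adjusted p = 1.19e-06, 8.5e-09 and 6.37e-07). RNA levels do not show whether any of these proteins was cut.

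Promoter windows of 300 bases (250 before to 50 after the start) were available from RefSeq (GRCm38.p6) for 10 sperm and 7 somatic members, the latter with 9 windows. The windows of 2 sperm members that fell and 2 somatic members that rose at week 1 are shown to compare their content of the dinucleotide CG, which is in capitals: Adam1b at chr5:121503386-121503685 (minus strand), Adam1a at chr5:121521646-121521945 (minus strand), Adam10 at chr9:70678732-70679031 (plus strand) and Adam17 at chr12:21373583-21373882 (minus strand).
Adam1b: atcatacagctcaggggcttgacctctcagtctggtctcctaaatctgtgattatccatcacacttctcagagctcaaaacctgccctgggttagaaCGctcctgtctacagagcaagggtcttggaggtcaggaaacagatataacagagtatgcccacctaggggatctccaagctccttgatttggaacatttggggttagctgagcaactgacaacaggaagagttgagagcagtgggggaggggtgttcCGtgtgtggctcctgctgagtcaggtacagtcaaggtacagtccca
Adam1a: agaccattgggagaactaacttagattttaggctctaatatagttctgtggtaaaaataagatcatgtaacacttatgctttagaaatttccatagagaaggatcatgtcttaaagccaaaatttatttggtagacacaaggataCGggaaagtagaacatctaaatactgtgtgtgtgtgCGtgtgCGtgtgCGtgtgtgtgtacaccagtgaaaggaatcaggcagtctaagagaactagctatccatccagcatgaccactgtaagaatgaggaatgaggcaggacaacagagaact
Adam10: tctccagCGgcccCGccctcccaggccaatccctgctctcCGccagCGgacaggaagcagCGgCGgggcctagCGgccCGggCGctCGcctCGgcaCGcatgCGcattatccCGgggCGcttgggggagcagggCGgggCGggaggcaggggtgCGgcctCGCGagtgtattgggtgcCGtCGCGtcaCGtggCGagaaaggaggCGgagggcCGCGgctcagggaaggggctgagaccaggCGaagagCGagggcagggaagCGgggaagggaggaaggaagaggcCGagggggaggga
Adam17: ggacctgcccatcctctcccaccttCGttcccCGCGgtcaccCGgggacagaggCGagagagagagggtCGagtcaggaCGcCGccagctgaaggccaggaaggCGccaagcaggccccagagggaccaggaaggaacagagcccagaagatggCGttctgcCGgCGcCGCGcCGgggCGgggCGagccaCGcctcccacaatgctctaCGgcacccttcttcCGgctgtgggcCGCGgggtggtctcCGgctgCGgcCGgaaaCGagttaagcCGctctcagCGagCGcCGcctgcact

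The Adam1b and Adam1a windows held 2 and 4 CG dinucleotides, and those of Adam10 and Adam17 held 32 and 30. The other somatic members that rose at week 1 had 31 (Adam23), 6 (Adam8) and 5, 11 and 5 (Adam19, several windows). Adam22, which fell, had 19, and Adam15, which was not called, had 25. CG content thus did not separate somatic members that rose from the 1 that fell. Across the sperm members with a window the median was 1 (0 to 4), across the somatic windows 19 (5 to 32), and across all 32851 mouse windows 7 (0 to 67). The ranges of the sperm and the somatic windows did not overlap. All 10 sperm members with a window had 1 coding exon, and all somatic members had more. Sperm against somatic and 1 against more coding exons thus cannot be told apart here. The windows leave out the 5 sperm members with the highest week 0 levels, and Adam19 gave more than 1 of the somatic windows. Median GC content was 39.5%, 65.3% and 52.7% in the same order. GGGCGG, the core of a GC box, was found on either strand in 0 of 10 sperm and 5 of 9 somatic windows, and in 35.66% of all. TATAAA was found in 3 of 10 sperm and 0 of 9 somatic windows, and in 13.62% of all. TGACGTCA, the full cAMP response element, which activators of spermatid genes can bind, was in 0 of 10 and 0 of 9 windows and in 1.79% of all, and its shorter form TGACG, which it contains, in 0 of 10, 1 of 9 and 20.81%. Members without a window were Adam2, Adam3, Adam4, Adam5, Adam7, Adam9, Adam11, Adam12, Adam18, Adam24, Adam26a, Adam28, Adam30, Adam32, Adam33 and Adam39.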

How the data were processed

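The authors deposited 1 matrix of normalized FPKM values with 21969 genes and 10 libraries, made from TruSeq Stranded mRNA libraries per the labels' protocols. Per the submitters' processing notes, HISAT2 2.1.0 and Bowtie2 2.3.4.1, Cuffdiff and Cufflinks 2.2.1, and cutadapt 1.16 with bcl2fastq 2.17.1.14 were used, with the build mm10. How the values were normalized or filtered, and on which annotation release, is not stated in the sources used here. Errors in sharing reads between near-identical genes were carried along.

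The FPKM values were transformed to log2(FPKM + 1), with a pseudocount of 1, which makes changes of low genes look smaller. Genes that reached FPKM 1 in 2 or more libraries were kept, 15671 in number and 31 of them ADAM genes. One limma model (version 3.58.1, R 4.3.3) held all 5 groups (intensity trend, 5 residual degrees of freedom), with two-sided p-values adjusted by Benjamini-Hochberg over all genes of a comparison and a threshold of 0.05. The comparisons share groups. The fit was tested on simulated data. FPKM values hold no depth. The read number that scaled each library, which may differ from depth, was read from 2268 genes with a lone transcript of at least 1500 nucleotides. A fragment of 200 nucleotides was assumed, and 95.5% to 98.8% of low values came to whole reads, give or take 0.15. Since this reading needs an annotation that is not named, no count model was run.

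All 33 members were found in GENCODE M21 with the same identifier version, which gave coordinates (1-based), exons and coding sequences. The members and the gene lists were chosen with earlier results of these data known. Values per library are given for the 6 sperm and 9 somatic members with the highest mean and for those that changed most, the others by range. From a list of more than 6 genes, at most the 3 called genes with the largest change at week 1 or in GS cells against week 0 are named, with further members of both kinds added after their values were seen. Protein sequences and promoters of the 3 highest sperm members were planned and not used here.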

Additional observations from a re-analysis of the deposited data

How the results depend on the processing

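The 67 values of named members were recomputed under 19 alternatives (1252 values), of which 1170 kept their direction and side of the threshold, 51 lost a call, 19 gained one and 12 changed sign. All 314 values of week 1 against week 0 kept their direction, and the 2 that moved across the threshold were those of Adam15. Counts of members called higher were 1 in GS cells against week 3 with a filter of FPKM 5 (Adam33 not tested) and 1 with only the 2 groups fitted (Adam10 lost), and 8 in GS cells against week 0 under quantile normalization (Adam8, Adam23 and Adam33 gained). The cause was not tested.

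With each library left out in turn, week 1 against week 0 gave 8 to 8 members higher and 4 to 22 lower, week 2 against week 1 gave 0 to 0 higher and 6 to 8 lower, week 3 against week 2 gave 0 to 0 higher and 0 to 5 lower, GS cells against week 3 gave 0 to 2 higher and 0 to 1 lower, and GS cells against week 0 gave 4 to 6 higher and 5 to 24 lower. The 4, 5 and 6 come from leaving out a week 0 library: 18 of the 20 sperm members, at under 1 FPKM in every cultured library, then missed the filter of 2 libraries, and 13 members were tested. On the full set of genes, an alternative added after the data were seen, 22 and 22 members were lower at week 1 and 24 and 23 in GS cells, and 1 was lower in week 3 against week 2 (Adam15 and Adam33 lost) and 1 higher in GS cells against week 3 (Adam33 lost), while Adam23 and Adam33 were lost in week 2 against week 1.

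The signs that changed were those of Adam8 in GS cells against week 0 (0.62, quantile), Adam17 and Adam10 in week 2 against week 1 (0.12 and 0.10) and Adam17 in week 3 against week 2 (-0.012), the last 3 with a common FPKM sum. With 1 library left out, Adam17 ranged from -0.26 to 0.28 in week 3 against week 2. Adam17, in GS cells against week 3, ranged from -0.30 to 0.24, Adam23 from -0.10 to 0.45, Adam11 from -0.65 to 0.70 and Adam22 from -0.050 to 0.50. None of these but Adam8 was called in the comparison named.

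The deviations of libraries with the same replicate number correlated at -0.05 to 0.05 between groups, so the numbers were not taken as pairs. With a replicate block, Adam33 was not called in week 2 against week 1 (adjusted p = 0.0535) or week 3 against week 2 (0.0552), Adam2 was not called and Adam3 was called lower in week 2 against week 1, and Adam23 was called lower in week 3 against week 2 (0.0238) and higher in GS cells against week 0 (0.0136). The counts of calls at week 1 were 8 higher and 22 lower, as without it.

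Limits are the 2 libraries per group, the low levels of the sperm members in culture, and changing cell makeup between weeks. Another is sequence shared with other genes, not all of them ADAM members, in Adam1a, Adam1b, Adam4, Adam6a, Adam6b, Adam20, Adam25, Adam26a, Adam26b, Adam34 and Adam39.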
